A study of Mus musculus with 4 samples.

Results

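The genes Sptb, Ank1, Epb42, Epb41, Mpp1, Add1, Add2, Dmtn and Tmod1, which encode proteins of the red cell membrane skeleton, were followed in poly(A) RNA sequencing of Ter119+ cells from mouse bone marrow. They were chosen by name with earlier results of these data known, as were the gene lists and pairs below. Whether that choice shaped the counts called in each list was not tested, so those counts are descriptions. All 9 were found by gene symbol among 56691 listed genes and passed the filter on low counts with 13052 genes in all. The comparison asks how loss of Med16, a subunit of Mediator, the coactivator that passes signals of DNA-bound factors to RNA polymerase II, changes these transcripts. The samples were 2 libraries labelled Med16 KO and 2 labelled Med16 fl/fl (floxed alleles), all with a time label of 3 weeks. The labels do not say whether that time is the age of the mice or the time after deletion. The sources used here give neither the Cre driver, nor the exons deleted, nor the number of animals behind each library, so a p value reflects only how far these libraries vary, and that variation may be technical. Ter119 is an erythroid surface antigen carried across erythroblast stages and by red cells, so each library holds a mixture of stages. In such bulk samples fewer cells of a type and less RNA per cell cannot be told apart.

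The membrane skeleton is a hexagonal net of spectrin tetramers under the lipid bilayer, which gives red cells their elastic shape. It is held to the membrane at a pair of sites. At the first, ankyrin joins beta spectrin to band 3, the anion exchanger, with protein 4.2 beside it. At the second, the junctional complex, spectrin ends meet short actin filaments, protein 4.1 strengthens that contact and binds glycophorin C with the help of p55, and adducin, dematin and tropomodulin bind or cap the filaments. Inherited defects of beta spectrin, ankyrin, protein 4.2 or protein 4.1 cause spherocytosis or elliptocytosis in people.

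The libraries held 6948951 and 6749196 assigned counts in Med16 KO and 7216333 and 7048208 in Med16 fl/fl. Med16 had 16 and 30 counts in the KO libraries, against 164 and 127 in the fl/fl libraries (log2 fold change -2.64, SE 0.34, edgeR quasi-likelihood test with Benjamini-Hochberg adjustment over all genes tested, adjusted p = 4.6e-05), so all 4 libraries followed their labels. Of 12 genes that define erythroid cells, 11 were found by symbol (Ahsp was not), and these were detected in every library. Detection cannot show how pure the sort was, since the neutrophil genes below were detected in every library too. The 11 erythroid genes summed to 109037 and 112724 CPM (counts scaled to an equal library size by TMM) in KO, against 127617 and 130365 CPM in fl/fl. The beta globin gene Hbb-bs made up most of these sums, with means of 64586 CPM in KO and 72711 CPM in fl/fl. Of the 11, 9 were called lower and 1 higher (Alas2, log2 fold change 0.13, SE 0.02). With a correction for GC content 0 were called higher. Over all genes tested, 9.89% were called lower and 8.5% higher. All 11 had a mean of at least 100 CPM, and of such genes 38.8% were called lower and 20.7% higher.

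Sequence upstream of transcription starts was available for 7 of the 9 genes, in 9 windows of 250 bases that end at the base before the start (RefSeq, build GRCm38.p6; the counts were made on another build). Windows of 4 genes are shown because they belong to the gene that fell most (Epb42), the p55 gene (Mpp1), the beta spectrin gene (Sptb) and the gene whose change did not pass the test (Epb41, 1 of its 3 annotated starts). Capitals mark matches on either strand to AGATAA, a form of the pattern read by GATA factors, and to CCNCNCCC, a CACCC-like pattern read by Kruppel-like factors. Other forms read by GATA factors, such as TGATAG, were not searched. Lower case therefore does not mean that a GATA site is absent, and the Epb41 window holds TGATAG on the opposite strand (ctatca). Adjoining capitals can be overlapping matches to CCNCNCCC.
Epb42: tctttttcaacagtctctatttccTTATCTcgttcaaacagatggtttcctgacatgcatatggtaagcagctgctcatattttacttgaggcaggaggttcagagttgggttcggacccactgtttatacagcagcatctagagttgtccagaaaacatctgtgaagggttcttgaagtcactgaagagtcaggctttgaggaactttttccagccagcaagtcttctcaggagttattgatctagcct
Mpp1: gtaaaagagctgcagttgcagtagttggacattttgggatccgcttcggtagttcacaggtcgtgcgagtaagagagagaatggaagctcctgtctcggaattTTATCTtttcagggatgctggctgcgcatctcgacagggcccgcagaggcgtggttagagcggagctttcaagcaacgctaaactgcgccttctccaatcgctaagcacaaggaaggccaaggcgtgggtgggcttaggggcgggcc
Sptb: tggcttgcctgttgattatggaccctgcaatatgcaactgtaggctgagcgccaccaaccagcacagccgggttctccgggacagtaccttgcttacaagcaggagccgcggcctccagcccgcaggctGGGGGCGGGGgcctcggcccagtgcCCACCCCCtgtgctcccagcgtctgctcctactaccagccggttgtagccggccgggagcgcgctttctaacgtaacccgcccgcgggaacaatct
Epb41: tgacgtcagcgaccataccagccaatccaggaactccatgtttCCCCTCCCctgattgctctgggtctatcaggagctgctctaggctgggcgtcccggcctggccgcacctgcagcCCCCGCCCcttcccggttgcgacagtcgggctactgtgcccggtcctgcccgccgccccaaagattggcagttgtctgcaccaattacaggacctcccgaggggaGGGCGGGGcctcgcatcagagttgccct
The windows lie on the minus strand at chr2:121036878-121037127 for Epb42, chrX:75131017-75131266 for Mpp1, chr12:76710548-76710797 for Sptb and chr4:132075314-132075563 for Epb41, and are printed in the direction of transcription. AGATAA was found in 2 of the 9 windows, those of Epb42 and Mpp1, against 9.99% of all 32851 windows of this length. Both are shown. CCNCNCCC was found in 6 of 9, against 45.9%, with 3 matches each in the Sptb and the shown Epb41 window. Among windows not shown, those of Epb41 had 6 and 0 matches and that of Tmod1 had 4. CANNTG, the E-box read by TAL1 partners among many others, was found in 7 of 9, against 66.2%. These matches are descriptions of letters and were not tested against the fold changes.

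Per kilobase of annotated exon, Epb41 was the most abundant of the 9 transcripts, at 243 ± 1.55 CPM per kb in KO and 255 ± 2.56 CPM per kb in fl/fl (mean ± SD, n = 2 libraries each, as in all means below). In KO the order went on with Sptb at 152 ± 0.832, Epb42 at 122 ± 1.03, Ank1 at 79.5 ± 1.27, Mpp1 at 74.4 ± 1.87, Add1 at 73.6 ± 2.24, Dmtn at 65.0 ± 1.32, Tmod1 at 63.0 ± 0.734 and Add2 at 52.4 ± 1.2 CPM per kb. Mpp1 and Add1 overlapped between their libraries there, and no other neighbours did. In fl/fl libraries Epb42, at 202 ± 1.79, stood above Sptb, at 185 ± 4.29, and Dmtn and Add1 overlapped at 89.3 ± 1.14 and 89.1 ± 1.5 CPM per kb. The protein 4.2 transcript thus stood above that of beta spectrin in fl/fl and below it in KO. The summed level of the 9 genes was 923 and 927 CPM per kb in KO, against 1173 and 1164 CPM per kb in fl/fl. These levels depend on the length used, since the genes have between 3 (Sptb) and 19 (Epb41) annotated transcripts and counts per gene do not separate them.

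Of the 9 genes, 8 fell in Med16 KO and none rose, and both KO libraries lay below both fl/fl libraries for all 9. Over all genes tested, 9.89% were called lower and 28.2% had both KO libraries below both fl/fl libraries. Genes with a mean of at least 100 CPM, a limit chosen after the values were seen and passed by all 9, give a second background: 38.8% of 1674 such genes were called lower, and 52.5% had both KO libraries below. Their median log2 fold change was -0.36, against 0.02 over all genes tested and -0.11 over genes of at least 100 CPM. The falls were moderate, between 17.4% (Add1) and 39.7% (Epb42) of the fl/fl level.

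**Figure D1:**
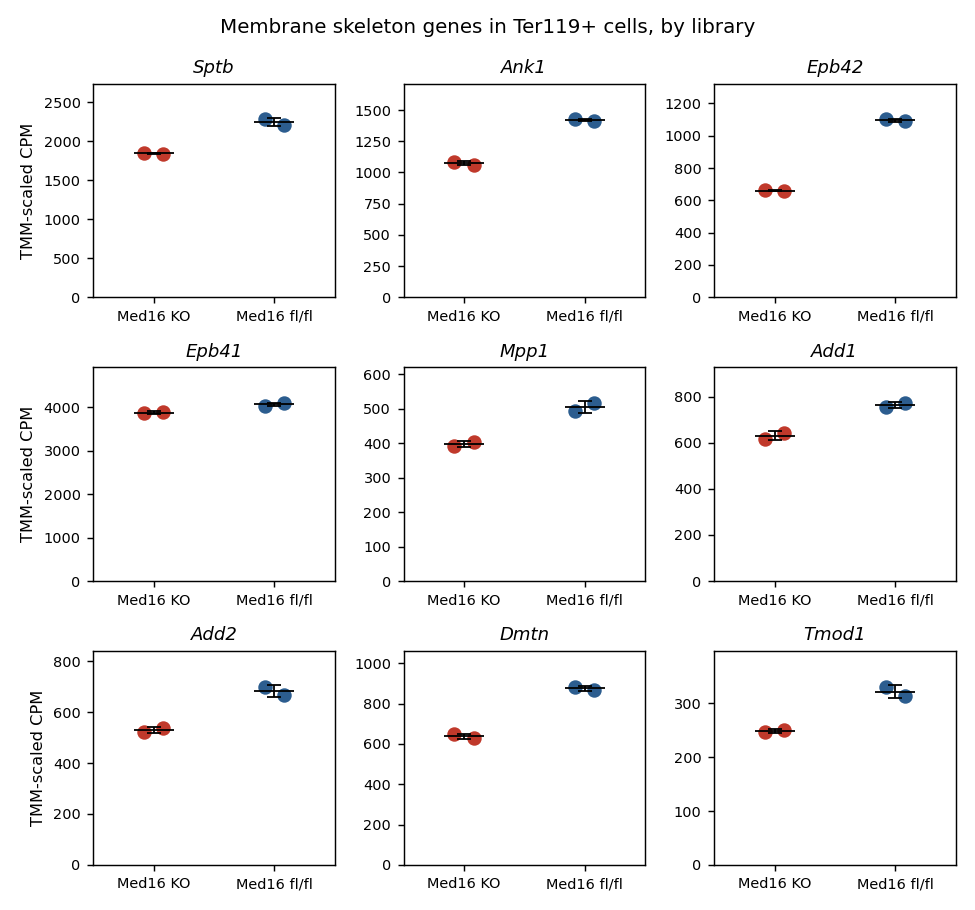
TMM-scaled CPM (vertical axes, each from 0) of the 9 genes in the 2 Med16 KO libraries (red) and the 2 Med16 fl/fl libraries (blue); points are libraries, black lines the mean and SD. All KO points lie below the fl/fl points of the same gene, by the widest margin for Epb42 (660 against 1095 CPM on average) and a narrow one for Epb41 (3876 against 4065 CPM).

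At the ankyrin anchor, Epb42 had the largest fall of the 9. Epb42 (ENSMUSG00000023216) encodes protein 4.2, a relative of the transglutaminases without enzyme activity that binds band 3 and ankyrin. It had 664 and 656 CPM in KO libraries, against 1102 and 1088 CPM in fl/fl libraries. The libraries of each genotype nearly coincided, and the gap between genotypes was 424 CPM. The log2 fold change was -0.73 (SE 0.04, adjusted p = 8.2e-09), and 3.05% of genes of at least 100 CPM had a lower one.

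Ank1 (ENSMUSG00000031543) encodes ankyrin-1, which ties beta spectrin to band 3. It had 1088 and 1063 CPM in KO, against 1427 and 1413 CPM in fl/fl, without overlap (log2 fold change -0.40, SE 0.04, adjusted p = 1.7e-06). An antisense gene, Gm15816, shares 6.37% of its annotated exon length and was also lower (-0.57, SE 0.08), and since the strand setting of the counting is not given, reads in that stretch cannot be assigned to a strand. Sptb (ENSMUSG00000021061), which encodes the erythroid beta chain of spectrin, had 1851 and 1836 CPM in KO, against 2280 and 2207 CPM in fl/fl. The ranges of the genotypes were 356 CPM apart, and the log2 fold change was -0.28 (SE 0.03, adjusted p = 2.1e-05). It was -0.48 with the GC correction and -0.15 with the transcript length correction, and called lower in both.

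At the junctional complex, Epb41 was the single gene of the 9 that was not called. Epb41 (ENSMUSG00000028906) encodes protein 4.1R, which joins spectrin to actin and to glycophorin C. Its counts were the highest, 27554 and 26542 in KO and 28589 and 28311 in fl/fl, or 3858 and 3893 CPM against 4036 and 4093 CPM. The genotypes did not overlap, but the log2 fold change of -0.07 (SE 0.03) did not pass the test (adjusted p = 0.11). With a correction for GC content it was called higher, at 0.12 (adjusted p = 0.0078), with a correction for transcript length it was 0.03, and without fl/fl library 1 it was called lower at -0.09 (adjusted p = 0.046), so no direction can be given for Epb41.

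Mpp1 (ENSMUSG00000031402) encodes p55, a palmitoylated scaffold of the guanylate kinase family that forms a ternary complex with protein 4.1 and glycophorin C. It had 390 and 404 CPM in KO, against 493 and 516 CPM in fl/fl (log2 fold change -0.35, SE 0.05, adjusted p = 0.00024). The ranges were 89.0 CPM apart, but with the GC correction the value was -0.12 and no longer called (adjusted p = 0.14). Mpp1 and Epb41 had the lowest GC content of the 9, at 40.8% and 42.3% of the longest transcript, against a median of 49.6% over tested genes and up to 57.0% for Sptb.

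Both erythroid adducin chains were lower. Adducin caps the fast-growing end of junctional actin as a dimer of an alpha chain (Add1) with a beta chain (Add2). Add1 (ENSMUSG00000029106) had 617 and 644 CPM in KO, against 754 and 772 CPM in fl/fl (log2 fold change -0.28, SE 0.05, adjusted p = 0.00048). Add2 (ENSMUSG00000030000) had 523 and 539 CPM in KO, against 699 and 668 CPM in fl/fl (-0.36, SE 0.05, adjusted p = 6.5e-05). Neither gene's genotypes overlapped. An antisense gene, Gm44089, shares 3.51% of the Add2 exon length.

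Dmtn (ENSMUSG00000022099) encodes dematin, an actin-bundling protein of the junction, and was second to Epb42 in its fall, except with the GC correction, where Ank1 (-0.59) fell more than Dmtn (-0.57). It had 647 and 629 CPM in KO, against 883 and 867 CPM in fl/fl (log2 fold change -0.46, SE 0.04, adjusted p = 2.3e-06). Tmod1 (ENSMUSG00000028328), whose product tropomodulin 1 caps the slow-growing end of the filament, was the least abundant in counts. It had 247 and 251 CPM in KO, against 331 and 313 CPM in fl/fl (-0.37, SE 0.06, adjusted p = 0.00042). Its level fell by 22.7%. Tmod1 shares 32.6% of its annotated exon length with Tstd2, a gene on the opposite strand that was lower too (103 and 133 CPM in KO, against 149 and 153 CPM in fl/fl; -0.36, SE 0.10), so part of its count is uncertain.

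**Figure D2:**
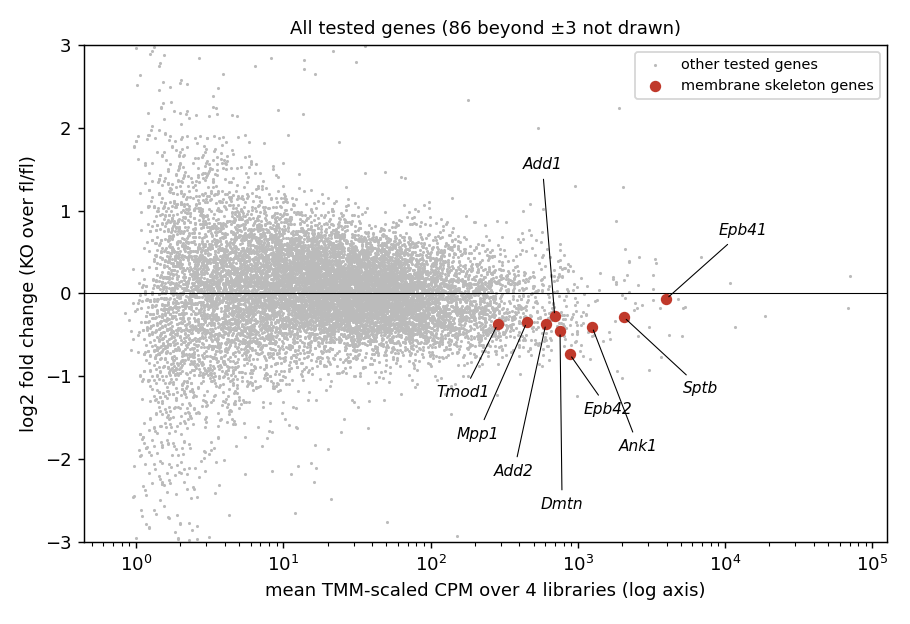
Log2 fold change (KO over fl/fl, vertical axis) against mean TMM-scaled CPM over the 4 libraries (log axis) for the tested genes, less 86 with a change beyond 3 in either direction, which are not drawn; the 9 skeleton genes are red and named. All 9 lie among abundant genes, 8 of them between -0.28 and -0.73 and Epb41 near 0.

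Ratios of partner genes were taken within each library, where library size cancels. The 13 pairs reported here were compared, and in 11 the genotypes did not overlap: the ratio was lower in KO in 7 and higher in 4. No such count was made over other pairs of genes, so it cannot be read as a trait of partner genes. With 2 libraries against 2 the exact permutation test (two-sided) cannot go below p = 0.333, or 0.394 adjusted over the 13 pairs, so none can pass a threshold and the values are given as descriptions. The GC-corrected values of ratios were chosen after seeing the data.

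At the ankyrin anchor, the ratios of Epb42 to both of its partners were lower in KO. There were 0.611 and 0.617 Epb42 reads per Ank1 read in KO, against 0.772 and 0.770 in fl/fl, a log2 difference of -0.33. Relative to Slc4a1, the band 3 gene, the Epb42 ratio was 0.0660 in both KO libraries, against 0.0834 and 0.0819 in fl/fl (-0.32). With the GC correction these differences were -0.06 and -0.11. There were 0.108 and 0.107 Ank1 reads per Slc4a1 read in KO, against 0.108 and 0.106 in fl/fl, which overlapped between genotypes.

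The ratios of beta spectrin to ankyrin and to protein 4.1 shifted in opposite directions. There were 1.70 and 1.73 Sptb reads per Ank1 read in KO, against 1.60 and 1.56 in fl/fl (log2 difference 0.12). Against Epb41 the Sptb ratio was 0.480 and 0.472 in KO and 0.565 and 0.539 in fl/fl (-0.21, and -0.60 with the GC correction). Mpp1 reads per Epb41 read were 0.101 and 0.104 in KO, against 0.122 and 0.126 in fl/fl (-0.28). Mpp1 reads per read of Gypc, the glycophorin C gene, were 1.03 and 1.09 in KO, against 1.02 and 1.08 in fl/fl, and overlapped (0.01, and 0.29 with the GC correction). Epb41 reads per Gypc read were 10.2 and 10.5 in KO, against 8.35 and 8.58 in fl/fl (0.29, and 0.54 with the GC correction).

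Among actin-capping genes, the ratio of Add3 to Add1 was higher and that of Tmod1 to Tmod3 lower in KO. Add3 encodes gamma adducin, which pairs with alpha adducin in other tissues: 0.101 and 0.108 Add3 reads per Add1 read in KO, against 0.0672 and 0.0719 in fl/fl (0.59). Tmod1 reads per read of Tmod3, the widely expressed tropomodulin, were 5.06 and 5.74 in KO, against 8.0 and 7.05 in fl/fl (-0.48, and -0.76 with the GC correction). Add3 and Tmod3 themselves had log2 fold changes of 0.32 (SE 0.12) and 0.11 (SE 0.14) that did not pass the test. The remaining pairs shifted by less: Add2 per Add1 by -0.09, Dmtn per Add2 by -0.09 and Tmod1 per Dmtn by 0.09 on the log2 scale. These 3 rest on single libraries: Add2 per Add1 was -0.04 when fl/fl library 1 was left out and -0.14 when fl/fl library 2 was. Leaving out KO library 2 gave -0.05 for Dmtn per Add2 and 0.05 for Tmod1 per Dmtn.

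**Figure D3:**
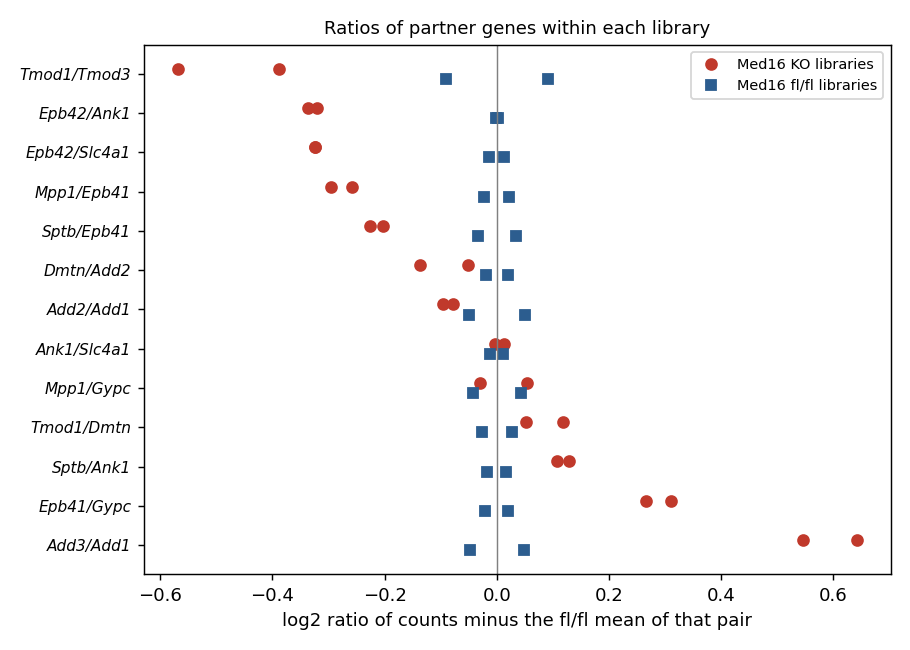
Log2 ratio of counts of 2 partner genes in each library, less the fl/fl mean of that pair (horizontal axis), for the 13 pairs; red circles are the Med16 KO libraries, blue squares the Med16 fl/fl libraries. Ank1/Slc4a1 and Mpp1/Gypc overlap. In both KO libraries Epb42/Ank1 and Epb42/Slc4a1 lie below 0, and Epb41/Gypc, Add3/Add1, Sptb/Ank1 and Tmod1/Dmtn lie above 0.

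The membrane proteins that the skeleton is fixed to were lower as well. Of 11 genes for band 3, glycophorins, Rh proteins and carriers, 10 fell and none rose, against 9.89% of all genes tested and 38.8% of genes of at least 100 CPM called lower. Their median log2 fold change was -0.47, and 9 of the 11 had at least 100 CPM. Slc4a1 had 10066 and 9946 CPM in KO, against 13211 and 13296 CPM in fl/fl (-0.41, SE 0.02), and Gypc 379 and 371 CPM in KO, against 483 and 477 CPM in fl/fl (-0.36, SE 0.05). Kel, the Kell blood group gene, fell most, by 0.81 on the log2 scale. Slc2a1, a glucose carrier at 9.94 and 16.9 CPM in KO and 10.6 and 10.8 CPM in fl/fl, was not called (0.32, SE 0.30).

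Many widely expressed components of the skeleton went the other way. Of the 16 further genes reported here, for actin, tropomyosin, capping protein, non-muscle myosin, calmodulin and related factors, 8 rose and 8 were not called, against 8.5% of all genes tested and 20.7% of genes of at least 100 CPM called higher. The median log2 fold change of these 16 was 0.28. The beta actin gene Actb had 2412 and 2581 CPM in KO, against 1909 and 1926 CPM in fl/fl (0.38, SE 0.04), and Actg1, for gamma actin, 619 and 651 CPM in KO, against 397 and 417 CPM in fl/fl (0.64, SE 0.05). The capping protein gene Capzb rose by 0.63, the tropomyosin gene Tpm3 by 0.44, the myosin heavy chain gene Myh9 by 0.44 and Cotl1, which encodes an actin-binding protein, by 0.82 on the log2 scale. Tpm1, Capza1, Capza2, Calm2 and Calm3 had values between 0.00 and 0.20 that did not pass the test. Pals1, for a membrane-associated scaffold related to p55, was not called either, at -0.43 (SE 0.27, adjusted p = 0.32), with both KO libraries below both fl/fl libraries. Without either fl/fl library 6 of the 16 were called higher, and in the other fits with an estimated spread 8 to 10 were.

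**Figure D4:**
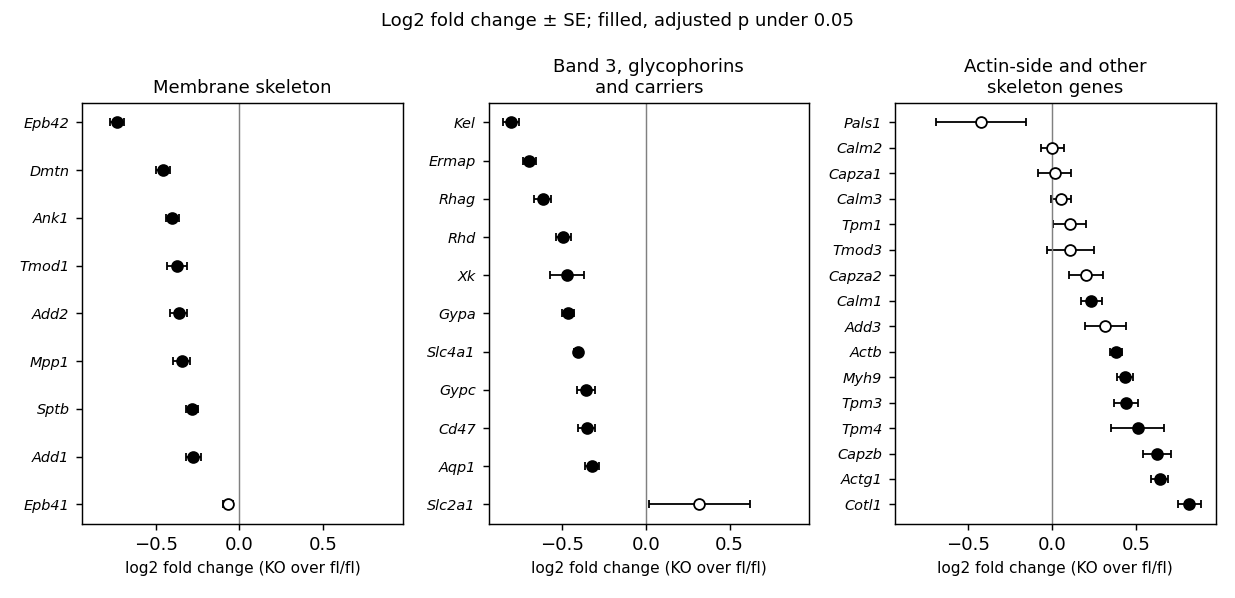
Log2 fold change (KO over fl/fl, ± SE, horizontal axes) of the 9 skeleton genes, 11 membrane protein genes and 16 other skeleton genes; filled points have an adjusted p under 0.05. Called genes lie to the left of 0 in the first 2 panels and to the right in the last.

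Paralogs of the 9 genes were mostly not called, as were most genes tested. Of 25 genes related to the 9, 18 were tested, 1 rose, none fell and 17 were not called, against 8.5% of all genes tested called higher and 9.89% called lower. Among the 18, just 1 had a mean of at least 100 CPM, unlike the 9 skeleton genes, which all did. The part of these lower counts in the number called was not tested. Sptan1, the alpha chain of non-erythroid spectrin, rose to 87.8 and 98.4 CPM in KO, against 59.0 and 75.6 CPM in fl/fl (log2 fold change 0.47, SE 0.12, adjusted p = 0.016). The count depended on single libraries: 0 genes were called without fl/fl library 1, 4 higher without KO library 1, and 2 higher and 1 lower without KO library 2. With library size only 3 were higher. Its partner Sptbn1 had 70.9 and 78.3 CPM in KO, against 60.0 and 60.2 CPM in fl/fl (0.31, SE 0.11, adjusted p = 0.072). Ank2 and Ank3, the ankyrins of other tissues, were not tested, with at most 11 counts in any library.

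Of the genes that mark other marrow cells, those of neutrophils and of megakaryocytes and platelets were most often called higher. The counts below stand against 8.5% of all genes tested called higher and 9.89% called lower. Of 15 neutrophil genes, all of at least 100 CPM, 13 were higher and none lower, against 8.5% of all genes tested and 20.7% of genes of at least 100 CPM called higher, with a summed level of 21000 and 21492 CPM in KO, against 15177 and 15006 CPM in fl/fl, and none at 0. Among 14 genes of megakaryocytes and platelets 10 were called higher, 0 lower and 4 were not called or not tested, and 6 and 5 were called higher without fl/fl library 1 and 2. They summed to 252 and 249 CPM in KO, against 118 and 102 CPM in fl/fl, and Gp1bb was at 0 in every library. Of 12 monocyte and macrophage genes 3 were higher and 2 lower (0 lower without either fl/fl library, with library size only or with the GC correction), summing to 842 and 831 CPM in KO and 726 and 718 CPM in fl/fl. Of 10 B cell genes 1 was higher and none lower (0 higher without either fl/fl library or with the GC correction, and 1 lower without either KO library), summing to 267 and 276 CPM in KO and 264 and 273 CPM in fl/fl. Of 10 T and NK cell genes, 6 of them tested, none was called, with sums of 64.7 and 62.8 CPM in KO and 56.9 and 53.9 CPM in fl/fl, and Klrb1c was at 0 in KO library 2 and Ncr1 in KO library 2 and fl/fl library 1. Of 10 stem and progenitor genes 3 were higher and none lower (2 and 0 higher without fl/fl library 1 and 2), summing to 368 and 312 CPM in KO and 272 and 261 CPM in fl/fl. The part of these cells in the lower skeleton values or in the higher actin values was not tested.

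The 5 genes below, with a mean of at least 50 CPM, had the profile over the 4 libraries most like the median profile of the 9, by Euclidean distance of log2 CPM centred per gene, among 3342 genes compared. They were Rrm2 (distance 0.019), a ribonucleotide reductase subunit, Plagl2 (0.021), Pon2 (0.026), Ube2h (0.031), a ubiquitin-conjugating enzyme, and Bcl2l13 (0.032). Of the 9 themselves, Add2 lay nearest to the median profile (0.012) and Epb41 (0.30) and Epb42 (0.37) farthest. With 4 libraries this likeness is a description only.

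The shares of Epb41 and Epb42 in the set shifted most. Of the summed CPM per kb, Epb41 made up 26.2% and 26.3% in KO, against 21.6% and 22.1% in fl/fl, and Epb42 13.3% and 13.1% in KO, against 17.3% in both fl/fl libraries. The shares of Mpp1, Tmod1 and Add2 overlapped between genotypes, and the 4 other genes shifted by under 1 percentage point.

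**Figure D5:**
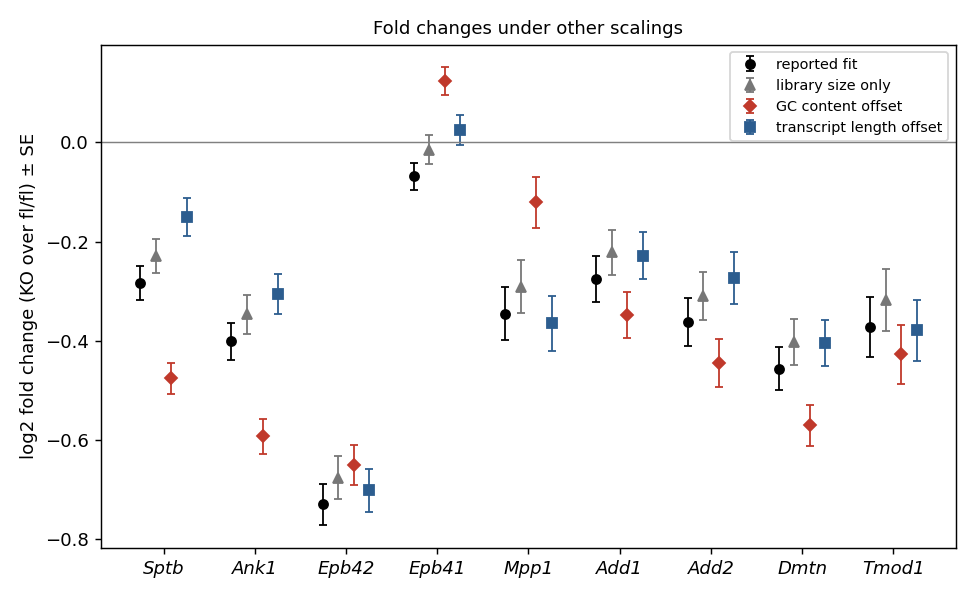
Log2 fold change (KO over fl/fl) ± SE of the 9 genes in the reported fit (black circles), with library size as the only scaling (grey triangles), with a GC content offset (red diamonds) and with a transcript length offset (blue squares). Epb42 stays between -0.65 and -0.73, Epb41 crosses 0 with either offset, and Mpp1 moves to -0.12 with the GC offset.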

How the data were processed

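Poly(A) RNA of 4 libraries (2 Med16 KO, 2 Med16 fl/fl) was analysed from the deposited tables of whole-number counts per gene. Per the submitters' processing notes the authors used HISAT2 2.1.0 and HTSeq 0.12.4 with build GRCm39; the notes also name FastQC 0.11.7, HOMER and DESeq2. The sources used here give neither strand setting nor annotation release. The 5 rows that name no gene were left out. Reads without a feature made up 35.8% to 36.7% of all reads. Reads not aligned numbered 575514 and 676809 in KO, against 233875 and 178144 in fl/fl. Genes with any count numbered 16892 and 16479 in KO, against 18947 and 19016 in fl/fl. The part of these library differences in the fold changes was not tested.

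Genes were kept with filterByExpr, scaled with TMM and tested with edgeR 4.0.16 (R 4.3.3) by the two-sided quasi-likelihood test, with no term other than genotype, and p values were adjusted by Benjamini-Hochberg over all 13052 genes tested, with calls at 0.05. The common biological coefficient of variation over all genes tested was 0.125. The test used a spread for each gene, with 2 residual degrees of freedom and a median of 13.1 prior degrees of freedom borrowed from other genes. SE is the log2 fold change divided by the square root of F. CPM is the count over the TMM-scaled library size. DESeq2 1.42.0 was an alternative. Lengths, GC content and overlaps came from GENCODE M21 on GRCm38 (98.4% of tested genes matched), so no gene coordinates are given from it. The procedure was tested on simulated counts.

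The members, gene lists and pairs were chosen with earlier results of these data known. Named genes were the 9, Med16, all pairs, called list members with the most abundant one, and the 5 nearest profiles; genes overlapping the 9 are named for their overlap. One gene of the lists and the pair that needs it are not reported here, so that list and the pairs are counted and adjusted without them.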

Additional observations from a re-analysis of the deposited data

How the results depend on the processing

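The reported fit called 8 skeleton genes lower. They numbered 8 with DESeq2 size factors, library size only, globin counts left out, the DESeq2 Wald test or the transcript length offset, 9 without a filter on low counts and 7 with the GC content offset. Leaving out 1 library at a time gave 8 to 9. Of 126 combinations of gene and alternative, 112 kept direction and call. Epb41 reversed to 0.12 with the GC offset, 0.025 with the length offset and 0.040 when only genes of at least 100 CPM were fitted, an alternative chosen after seeing the data. The number of all genes called, 2400, was 1158 to 3998 without 1 library (1275 and 1158 without fl/fl library 1 and 2, 3998 and 3878 without KO library 1 and 2), with the lone library assumed to vary like the other genotype, and 1117 among genes of at least 100 CPM, where fewer genes were tested. With library size only, 56.4% of calls were higher, against 46.2% in the reported fit, and the median of all genes was 0.07. With the biological coefficient of variation set to 0.2, also chosen after seeing the data, 620 genes and 0 of the 9 were called (Epb42 adjusted p = 0.14, likelihood ratio test). The SE of Epb42 was then 0.29, against 0.04 in the reported fit, so 0.2 is far above the spread used for it. The calls thus rest on the small spread between these libraries.

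Deviations of same-numbered libraries had r = -0.01 across genes, a single value that cannot show whether the libraries were paired. With the replicate block 2767 genes and 8 of the 9, all lower, were called. Of the 13 pairs, 11 were without overlap, and 12 when any 1 library was left out. Leaving out a library can only keep or raise that number, so this is no check of stability. The Ank1/Slc4a1 difference of 0.0045 ran from -0.0072 to 0.016 without 1 library (below 0 without fl/fl library 2 or KO library 1) and was -0.049 with the GC offset. That of Mpp1/Gypc, 0.012, ran from -0.031 to 0.054 (below 0 without fl/fl library 1 or KO library 2). Levels per kilobase, averaged over the 4 libraries, rose when the longest transcript replaced all exons, by construction, to 478 for Epb41, 213 for Epb42, 197 for Sptb, 158 for Mpp1, 153 for Add1, 149 for Ank1, 140 for Dmtn, 90.4 for Tmod1 and 74.2 for Add2 CPM per kb.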

Other observations

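Regulators known to act on erythroid membrane genes were lower in part. Of 13 tested transcription and splicing regulators on the list, 7 were called lower and none higher, against 9.89% of all genes tested and 38.8% of genes of at least 100 CPM called lower, with a median log2 fold change of -0.29. Klf1, the Kruppel-like activator of erythroid genes, had 417 and 412 CPM in KO, against 641 and 618 CPM in fl/fl (-0.60, SE 0.05). Foxo3 fell by 0.56, Lmo2 by 0.56, the splicing regulator gene Celf1 by 0.44, Nfe2 by 0.42, Tal1 by 0.34 and Gata1 by 0.29 on the log2 scale. Mbnl1 (0.04, SE 0.07) and Zfpm1, the most abundant of the list (0.04, SE 0.05), did not pass the test. With the GC offset 8 were lower and 1 higher, without KO library 1 there were 7 lower and 1 higher, without fl/fl library 1 there were 6 lower, and in the fit on genes of at least 100 CPM 7 of 10 were lower and 3 higher. With the biological coefficient of variation set to 0.2 none was called. Counts per gene cannot show the splicing switches of Epb41 that accompany erythroid maturation.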
